A study of Mus musculus with 11 samples.

Results

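The 36 genes described here encode the enzymes that build cholesterol and fatty acids and the proteins that control them through the sterol regulatory element-binding proteins (SREBPs). They were taken by symbol from a count table of 24143 mouse genes, with the RefSeq transcript of highest mean count kept for each gene. By role they comprise 7 genes of the mevalonate and isoprenoid steps, 11 of the sterol branch, 6 of SREBP control and sterol transport, 5 of fatty acid synthesis, and 7 of chain elongation and desaturation. In all, 35 of the 36 passed the filter on low counts and were tested. Hmgcs1, which makes the precursor of mevalonate, was listed at 0 in every library, in both of its transcript rows, and was not tested. Levels are given as CPM, counts scaled to the size of each library. A count of 0 allows up to 0.291 CPM in the shallowest library by counting error alone. Most cells express Hmgcs1, and 20.5% of all genes in the table were at 0 in every library used, so the listed 0 is not read as a lack of expression.

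The cells were HT22, a hippocampal mouse line immortalized with SV40, and TR/TO-Klf9 cells, an HT22 derivative stably transfected with the plasmids pCDNA6:TR and pCDNA4:TO-Klf9 and kept in zeocin and blasticidin. In these cells a tetracycline repressor holds back a Klf9 transgene until doxycycline is added; Klf9 is a zinc finger transcription factor that binds GC-rich promoter DNA. From 24 hours after plating, in medium with serum, cells of each line spent 8 hours in doxycycline at 0.5 µg/ml or in DMSO as vehicle, and the study asked which genes Klf9 regulates. The labels give 3 vehicle and 3 doxycycline samples of the parent line and, of TR/TO-Klf9, 3 vehicle and 2 doxycycline samples, and do not say whether the derivative is 1 clone.

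Library TR/TO-Klf9 vehicle 3 and library TR/TO-Klf9 doxycycline 1 had the same count in each of 33815 rows, so 1 library stood under opposite labels. Both columns were left out, which leaves 2 vehicle libraries and 1 doxycycline library in the TR/TO-Klf9 line and 9 libraries in all. The spread of the lone doxycycline library was not measured and was taken from the other groups. Klf9 was at 41.43, 36.14 and 38.06 CPM in parent vehicle, 39.57, 38.08 and 38.36 in parent doxycycline, 48.69 and 44.05 in TR/TO-Klf9 vehicle, and 101.44 in the doxycycline library of that line. The doxycycline library of TR/TO-Klf9 was 2.19-fold above its vehicle (log2 1.13 ± 0.08 SE, adjusted p = 7.45e-07), and both vehicle libraries of that line were above all 6 parent libraries. The library with conflicting labels held 45.93 CPM of Klf9, between the vehicle libraries of its line. Total counts ran from 10302434 to 18902788 per library, and the 36 genes together took 0.466% to 0.534% of them.

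SREBPs are made as membrane proteins of the endoplasmic reticulum. When sterols are scarce, SCAP escorts them to the Golgi, where proteases free a fragment that enters the nucleus and switches on its targets; when sterols are plentiful, INSIG proteins hold SCAP back. SREBP2, from Srebf2, mainly drives cholesterol genes, and SREBP1, from Srebf1, mainly fatty acid genes. The brain makes nearly all of its own cholesterol, because lipoproteins do not cross the blood-brain barrier. Transcript counts do not measure SREBP cleavage or enzyme activity. In bulk RNA, fewer cells of a type and less RNA per cell cannot be told apart.

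Per kilobase of transcript, Elovl1, an elongase of saturated long-chain fatty acids, had the highest mean over the 9 libraries, 126 CPM per kb. The desaturase gene Scd2 followed at 102, ATP-citrate lyase (Acly) at 95.1, fatty acid synthase (Fasn) at 91.1, squalene epoxidase (Sqle) at 83.6 and Srebf2 at 79.0. The ranges of these genes over the libraries overlapped with those of their neighbours, so their order is not firm beyond Elovl1, which ranged from 113 to 134 against 87.9 to 107 for Scd2. At the low end stood Acaca at 5.93, Tm7sf2, a sterol reductase gene, at 5.01, Acss2 at 3.67, Idi1 at 2.52 and Acacb at 0.441 CPM per kb. Srebf1 was at 26.0, below Srebf2 in every library. Acacb, the acetyl-CoA carboxylase isoform associated with mitochondria, was the lowest of the tested genes; its count was 26 in the library where it was smallest.

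In TR/TO-Klf9 cells, doxycycline was followed by lower counts of Acaca, Insig1, Fdps, Stard4, Srebf2, Cyp51 and Fads2 and higher counts of Mvk and Ebp. Acaca, the cytosolic acetyl-CoA carboxylase that commits carbon to fatty acids, changed most, to 1.91-fold below vehicle. Of 35 genes tested, 9 passed an adjusted p of 0.05, 2 higher and 7 lower, which is 25.7%. Among all 13536 genes tested, 17.8% passed, 6.44% higher and 11.4% lower. The median log2 fold change was −0.04 over the 35 genes and −0.01 over all genes, and the 35 ranged from −0.93 to 0.30. The doxycycline library was the lowest of the 9 for 14 of the 35 genes and the highest for 7. Over all genes it was below the 8 other libraries for 24.5% and above them for 23.6%.

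**Figure D1:**
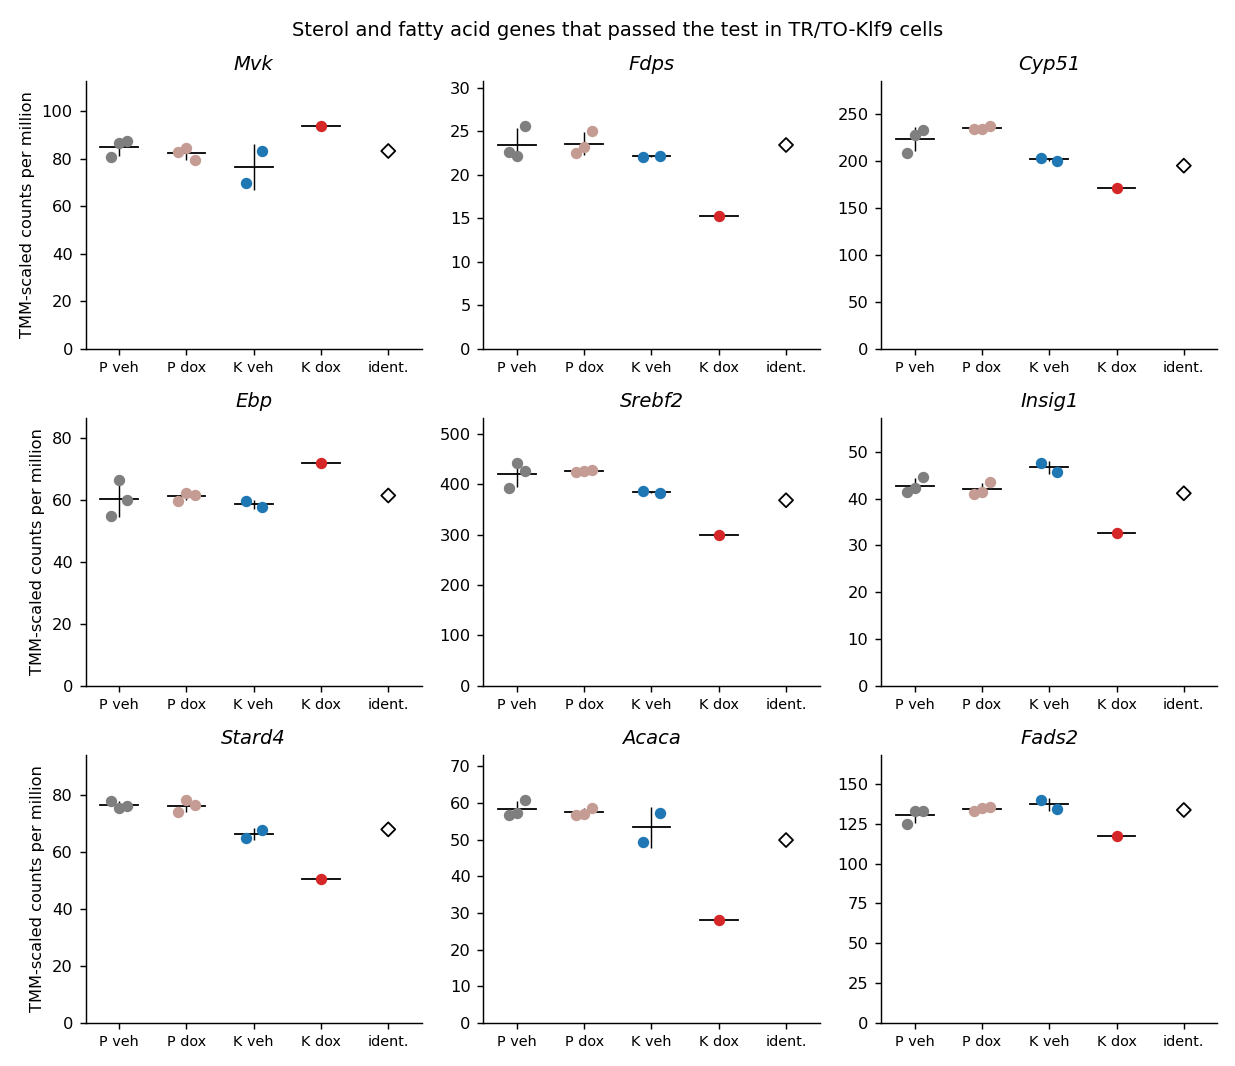
TMM-scaled counts (CPM, y axes, from 0) of the 9 genes that passed the test in TR/TO-Klf9 cells, in each library of parent vehicle (P veh), parent doxycycline (P dox), TR/TO-Klf9 vehicle (K veh) and TR/TO-Klf9 doxycycline (K dox); horizontal lines are means and vertical lines SD. The diamond is the library with conflicting labels (ident.), which entered no mean; Acaca lies at 27.96 in the doxycycline library and between 49.32 and 60.83 in the 8 others.

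Among the mevalonate and isoprenoid genes, 6 were tested, 1 rose and 1 fell, with a median of 0.06. Mvk (NM_023556, chromosome 5, 1660 nt transcript), mevalonate kinase, was at 80.84, 86.84 and 87.62 CPM in parent vehicle, 82.78, 84.63 and 79.45 in parent doxycycline, 69.71 and 83.35 in TR/TO-Klf9 vehicle, and 94.01 in that line's doxycycline library. The doxycycline library was the highest of the 9, and the vehicle libraries of its line were far apart. Mvk rose 1.23-fold (log2 0.30 ± 0.09 SE, adjusted p = 0.0327), but without TR/TO-Klf9 vehicle 1 it was at 0.17 with an adjusted p of 0.0885, and without vehicle 2 at 0.45.

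Fdps (NM_001253751, chromosome 3, 1382 nt), farnesyl diphosphate synthase, makes the precursor of both sterols and protein prenyl groups. It was at 22.59, 22.18 and 25.67 CPM in parent vehicle, 22.54, 23.23 and 25.04 in parent doxycycline, 22.04 and 22.21 in TR/TO-Klf9 vehicle, and 15.32 with doxycycline in that line. The 8 other libraries lay close together and the doxycycline library stood below all of them, 1.44-fold lower than its vehicle (log2 −0.53 ± 0.13 SE, adjusted p = 0.0104). Of the 50-base stretches in its transcript, 86.4% also occur in transcripts of other genes, and 51.1% in transcripts of pseudogenes, so its count is uncertain where reads could be split. The 4 uncalled genes of these steps were Acat2 at 0.21 (adjusted p = 0.0559), Mvd at 0.13, Pmvk at −0.01 and Idi1 at −0.45 ± 0.22 SE. Idi1, isopentenyl diphosphate isomerase, held only 4.75 CPM in the doxycycline library. Of the 50-base stretches of Acat2, the cytosolic thiolase, 45.9% are shared with other transcripts, chiefly of Acat3.

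In the sterol branch, which runs from the making of squalene to cholesterol, 1 of 11 genes rose and 1 fell, with a median of −0.01. Cyp51 (NM_020010, chromosome 5, 3931 nt), the lanosterol 14-alpha-demethylase, was at 208.31, 227.95 and 232.69 CPM in parent vehicle, 234.12, 233.59 and 237.55 in parent doxycycline, 202.81 and 200.28 in TR/TO-Klf9 vehicle, and 170.62 in the TR/TO-Klf9 doxycycline library. That library was the lowest, 1.18-fold below its vehicle (log2 −0.24 ± 0.08 SE, adjusted p = 0.0361). Ebp (NM_007898, chromosome X, 1743 nt), the sterol isomerase of the late pathway, was at 54.72, 66.44 and 60.02 CPM in parent vehicle, 59.86, 62.41 and 61.72 in parent doxycycline, 59.71 and 57.65 in TR/TO-Klf9 vehicle, and 72.09 in the doxycycline library of that line. It was highest there and rose 1.23-fold (log2 0.30 ± 0.09 SE, adjusted p = 0.0355). The 9 uncalled genes lay between −0.35 for Fdft1, squalene synthase (adjusted p = 0.069), and 0.23 for Nsdhl, a sterol dehydrogenase (adjusted p = 0.0565). Sqle, the squalene epoxidase, was at 0.07 ± 0.08 SE, and Msmo1, Sc5d and Dhcr7 were between −0.04 and −0.01. Cyp51 lost its call without parent vehicle 3 or any 1 of the parent doxycycline libraries, at an adjusted p of 0.0704 to 0.0866 and a log2 fold change of −0.22. Exons of Cyp51 overlap Akap9 on the other strand by up to 166 nt and those of Fdft1 overlap Ctsb by up to 774 nt, and with no strand given for the counting their reads cannot be told apart there.

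The 6 genes of SREBP control and sterol transport had estimates below 0 in every case, with a median of −0.27, and 3 of them fell. Their transcripts were long, with a median of 4260 nt, and 26.0% of all genes with transcripts of 4000 nt and over fell against 11.4% of all genes tested. With the length trend removed the median was −0.17, Scap was at 0.10 and 1 of the 6, Insig1, passed. Srebf2 (NM_033218, chromosome 15, 5077 nt) was at 393.20, 442.62 and 425.40 CPM in parent vehicle, 423.52, 427.00 and 428.28 in parent doxycycline, 385.93 and 383.33 in TR/TO-Klf9 vehicle, and 299.94 in that line with doxycycline. The vehicle libraries of the line nearly coincided, and the doxycycline library lay 1.28-fold below them (log2 −0.36 ± 0.09 SE, adjusted p = 0.0100). Insig1 (NM_153526, chromosome 5, 2697 nt), the sterol-regulated retention factor of SCAP and itself a SREBP target, was at 41.48, 42.18 and 44.58 CPM in parent vehicle, 40.97, 41.36 and 43.56 in parent doxycycline, 47.67 and 45.69 in TR/TO-Klf9 vehicle, and 32.64 in the doxycycline library of that line. No other library was below 40.97, and the fall was 1.43-fold (log2 −0.52 ± 0.09 SE, adjusted p = 0.00121). Stard4 (NM_133774, chromosome 18, 5097 nt), a cytosolic sterol carrier and also a SREBP2 target, was at 77.83, 75.45 and 76.12 CPM in parent vehicle, 73.99, 78.17 and 76.36 in parent doxycycline, 64.63 and 67.68 in TR/TO-Klf9 vehicle, and 50.49 in the doxycycline library. It was lower in the vehicle libraries of the TR/TO-Klf9 line than in the parent libraries, and lower again with doxycycline, by 1.31-fold (log2 −0.39 ± 0.08 SE, adjusted p = 0.00264).

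The other genes of this group did not pass. Srebf1 was at −0.18 ± 0.06 SE with an adjusted p of 0.053, close to the threshold, and ran from 108.97 to 116.49 CPM in the 8 other libraries against 101.13 in the doxycycline library. Scap was at −0.01 ± 0.08 SE. Insig2, the second retention factor, was at −0.09 ± 0.07 SE, with an interval of 2 SE from −0.23 to 0.05.

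In fatty acid synthesis, 1 of 5 genes fell, none rose, and the median was −0.22. Acaca (NM_133360, chromosome 11, 9026 nt) was at 56.65, 57.14 and 60.83 CPM in parent vehicle, 56.59, 56.94 and 58.73 in parent doxycycline, 49.32 and 57.28 in TR/TO-Klf9 vehicle, and 27.96 in that line with doxycycline. The doxycycline library held 365 counts of it and stood well apart from all 8 others (log2 −0.93 ± 0.10 SE, adjusted p = 1.99e-05). Of the 50-base stretches of the Acaca transcript, 55.4% also occur in the transcript of 1 processed pseudogene, Gm5182, so part of its count could belong there. Fasn, which assembles palmitate, was at 743.40 and 805.89 CPM in TR/TO-Klf9 vehicle and 664.40 with doxycycline, a difference of −0.22 ± 0.12 SE that did not pass (adjusted p = 0.222). Acly, which supplies cytosolic acetyl-CoA, was at −0.20 ± 0.09 SE, Acss2, which makes it from acetate, at 0.26 ± 0.15, and Acacb at −0.39 ± 0.25, none of which passed.

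Of the 7 genes of elongation and desaturation, 1 fell and none rose, with a median of 0.12. Fads2 (NM_019699, chromosome 19, 3150 nt), the delta-6 desaturase of polyunsaturated fatty acids, was at 125.08, 133.18 and 133.32 CPM in parent vehicle, 133.19, 135.10 and 135.53 in parent doxycycline, 140.05 and 134.32 in TR/TO-Klf9 vehicle, and 117.07 in that line with doxycycline. The last was below all others, though 1 parent library lay only a little above it (log2 −0.23 ± 0.07 SE, adjusted p = 0.0244). Its partner Fads1, the delta-5 desaturase, was at 0.13 ± 0.07 SE, and 259.95 CPM in the doxycycline library was the highest of the 9. The stearoyl-CoA desaturase genes were on either side of 0, Scd1 at 0.16 ± 0.07 SE and Scd2 at −0.20 ± 0.11 SE, and neither passed. Elovl6, which extends palmitate, was at 0.12 ± 0.08 SE, Elovl1 at 0.13 ± 0.07 and Elovl5 at 0.07 ± 0.07. Fads2, like Cyp51, lost its call without parent vehicle 3 or any 1 of the parent doxycycline libraries, at an adjusted p of 0.0608 to 0.0652 and a log2 fold change of −0.21.

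**Figure D2:**
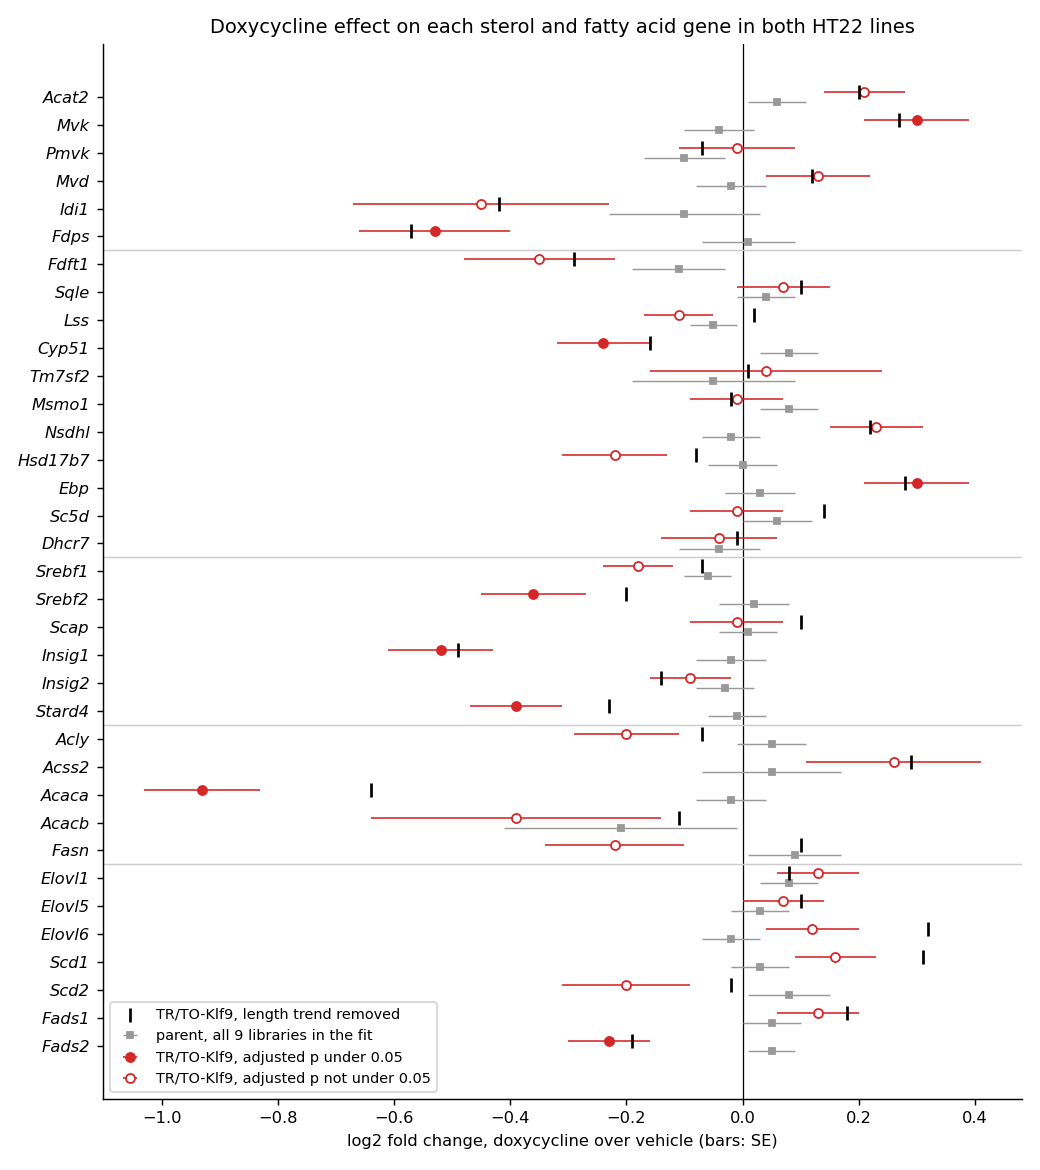
Log2 fold change of doxycycline over vehicle (x axis) for each of the 35 genes tested, by role (grey lines separate roles), in TR/TO-Klf9 (circles, filled where the adjusted p was under 0.05) and parent cells (squares), with SE; black ticks are the TR/TO-Klf9 values with the transcript length trend removed. Parent values lie between −0.21 and 0.09, while TR/TO-Klf9 values reach from −0.93 for Acaca to 0.30 for Mvk and Ebp.

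The library with conflicting labels bears on all of these values. It held 49.87 CPM of Acaca, 41.14 of Insig1, 23.44 of Fdps and 368.16 of Srebf2. For each of the 9 genes that passed, it was nearer to the mean of the 2 vehicle libraries than to the doxycycline library. These genes were called because the doxycycline library stood apart, so this placing was largely set in advance for them. Over all 35 genes tested it was nearer to the vehicle mean for 28. The exceptions were Acat2, Pmvk, Mvd, Tm7sf2, Acss2, Acacb and Elovl6. A mean of 2 libraries varies less than 1 library, which favours the vehicle side, and the share over all genes was not computed. The count of 28 therefore does not decide the label. With the library of conflicting labels counted as vehicle, Acaca was at −0.88. Counted as doxycycline, edgeR called none of the 35 and 0 of all 13163 genes tested. At an unadjusted p under 0.05 were 7 of the 35, beside 2043 of all genes. Acaca was then at −0.45, Insig1 at −0.33, Srebf2 at −0.20, Stard4 at −0.16 and Fdps at −0.19. Cyp51 was at −0.13, Fads2 at −0.12, Mvk at 0.22 and Ebp at 0.20. With only the 3 TR/TO-Klf9 libraries in the fit, Acaca alone of the 35 passed (adjusted p = 0.0312), beside 127 of all 13223 genes tested.

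Fold changes in this comparison also moved with transcript length over all genes. Of all genes with transcripts under 2000 nt, 11.0% rose and 3.35% fell, against 2.04% and 26.0% of those of 4000 nt and over. The sterol and fatty acid transcripts were 1194 to 10050 nt long, with a median of 3150 nt for those tested against 2790 nt over all genes. Among the 8 under 2000 nt, Mvk and Ebp rose and Fdps fell. Among the 13 from 2000 to under 4000 nt, Insig1, Cyp51 and Fads2 fell. Of all genes of that length, 5.97% rose and 7.19% fell. Among the 14 of 4000 nt and over, Acaca, Srebf2 and Stard4 fell, with a median of −0.20 for the class against −0.16 over all genes of that length.

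With the trend removed, 3 of the falls passed: Acaca at −0.64 (adjusted p = 0.00158), Insig1 at −0.49 (0.00386) and Fdps at −0.57 (0.0119). Srebf2 was then at −0.20 (adjusted p = 0.252), Stard4 at −0.23 (0.0724), Cyp51 at −0.16 (0.275) and Fads2 at −0.19 (0.121), and none of these passed. Mvk and Ebp stayed near their values, at 0.27 (0.108) and 0.28 (0.0781), without passing. Elovl6 at 0.32 (0.0438) and Scd1 at 0.31 (0.0349), both of long transcripts, had not passed before and did so with the trend removed. After this step 10.2% of all genes passed, 5.53% higher and 4.64% lower, beside 2 higher and 3 lower of the 35. Insig1 and Fdps were the fallen genes whose transcripts, of 2697 and 1382 nt, were shorter than the median of all genes.

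**Figure D3:**
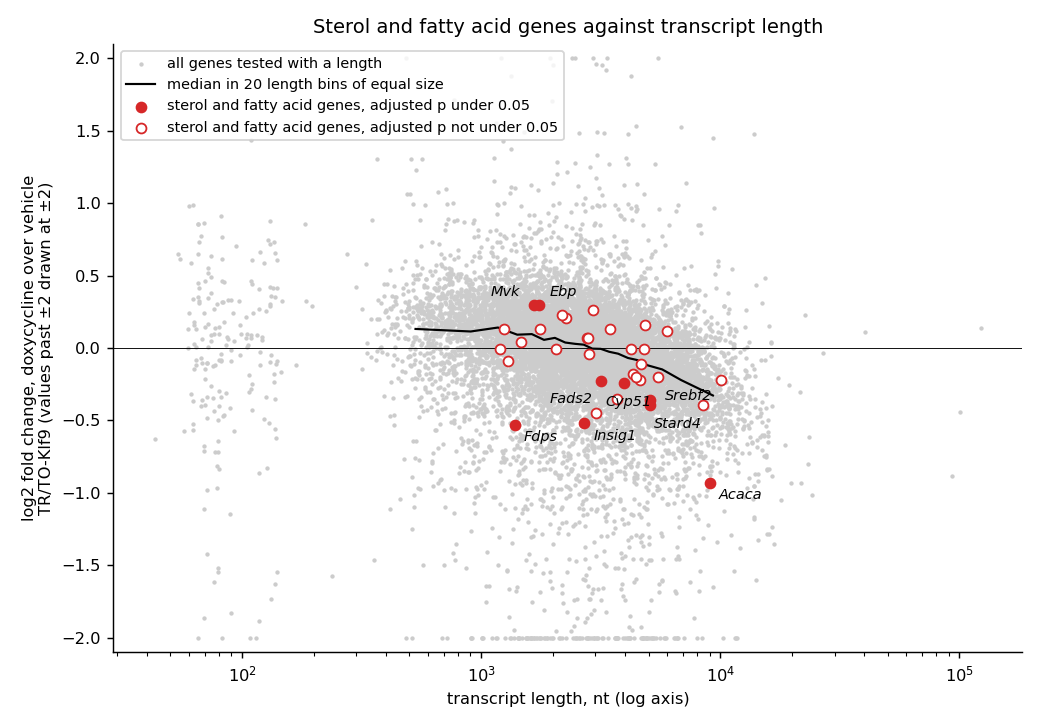
Log2 fold change of doxycycline over vehicle in TR/TO-Klf9 cells (y axis) against transcript length in nt (log x axis) for all genes tested with a length (grey) and the sterol and fatty acid genes (circles, filled and named where the adjusted p was under 0.05); the line joins medians of 20 length bins. The medians go from above 0 for short transcripts to below 0 for long ones, Fdps and Insig1 lie well below the line at their length, and Acaca lies below it at 9026 nt.

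In the parent line, which lacks the Klf9 cassette, none of the 35 genes passed after doxycycline. Of all genes edgeR called 0, 0.0%, with 293 of 13536 at an unadjusted p under 0.05, and DESeq2 and limma-voom also called 0. None of the 35 genes reached an unadjusted p under 0.05; the smallest was 0.114, for Elovl1 at 0.08 ± 0.05 SE. The estimates ran from −0.21 for Acacb to 0.09 for Fasn, with a median of 0.01. Acaca was at 58.20 ± 2.29 CPM with vehicle and 57.42 ± 1.15 with doxycycline (SD, n = 3 each), and Insig1 at 42.75 ± 1.62 and 41.96 ± 1.40.

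The difference of the doxycycline effects between the lines was then tested directly. It uses the same vehicle and doxycycline libraries as both single-line comparisons. By this test 7 of the 35 genes differed, all with the lower effect in TR/TO-Klf9, beside 9.67% of all genes, 2.75% higher and 6.92% lower. Acaca differed by −0.91 ± 0.12 SE (adjusted p = 0.000183), Insig1 by −0.49 ± 0.11 (0.00986) and Fdps by −0.54 ± 0.15 (0.035). Stard4, Srebf2, Cyp51 and Fads2 differed by −0.38, −0.38, −0.32 and −0.28, at adjusted p-values of 0.0142, 0.0295, 0.0344 and 0.0368. Of 20 alternatives, Acaca and Insig1 kept this call in 18, Stard4 in 12, Fdps and Srebf2 in 11, Cyp51 in 10 and Fads2 in 8. Only 2 of the 35 genes passed without parent doxycycline 2 or 3, and 3 without parent doxycycline 1 or parent vehicle 3. Fdps also lost its call with DESeq2 (adjusted p = 0.119). The rises of Mvk and Ebp were not called different between lines, at 0.34 ± 0.11 SE (adjusted p = 0.0601) and 0.26 ± 0.11 (0.152). With the length trend removed, 3.18% of all genes differed, 1.12% higher and 2.05% lower, and of the 35 there remained 3 calls, all lower, for Acaca (−0.63, adjusted p = 0.00931), Insig1 (−0.48, 0.0241) and Fdps (−0.60, 0.0426). With the library of conflicting labels counted as doxycycline edgeR called none of the 35 and 0 of all 13163 genes tested. At an unadjusted p under 0.05 were 3 of the 35, beside 1073 of all genes. With that library as vehicle Acaca was at −0.86.

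Under vehicle, the lines themselves differed in 12 of the 35 genes, 2 higher and 10 lower in TR/TO-Klf9 cells, which is 34.3% beside 38.9% of all genes (18.8% higher and 20.1% lower). The lower genes were 2 of 6 tested in the mevalonate steps, 4 of 11 in the sterol branch, 2 of 6 in SREBP control and sterol transport, 1 of 5 in fatty acid synthesis and 1 of 7 in elongation and desaturation. The median was −0.11 over the 35 genes and 0.01 over all genes. Klf9 was itself higher in this comparison, at 0.26 ± 0.07 SE (adjusted p = 0.00865), and the role of that difference was not tested.

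Insig2 (NM_178082, chromosome 1, 1292 nt) was at 54.93, 53.27 and 54.39 CPM in parent vehicle and 83.70 and 83.06 in TR/TO-Klf9 vehicle. The groups were far apart, 1.54-fold (log2 0.62 ± 0.05 SE, adjusted p = 1.69e-07), and the doxycycline libraries kept the same order, 55.19, 53.29 and 51.14 in the parent line and 78.45 in TR/TO-Klf9. Acacb (NM_133904, chromosome 5, 8482 nt) was at 3.95, 3.07 and 2.57 CPM in parent vehicle and 5.47 and 5.79 in TR/TO-Klf9 vehicle, a rise of 0.78 ± 0.19 SE at a low level (adjusted p = 0.00416). These 2 genes were the only ones of the 35 called higher.

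Lss (NM_146006, chromosome 10, 4667 nt), lanosterol synthase, was at 123.36, 124.47 and 127.37 CPM in parent vehicle and 93.94 and 96.80 in TR/TO-Klf9 vehicle, with no overlap (log2 −0.39 ± 0.05 SE, adjusted p = 6.34e-06). Elovl6 (NM_130450, chromosome 3, 5951 nt) was at 158.98, 169.92 and 168.24 against 110.04 and 130.68 CPM, apart in every library although the TR/TO-Klf9 pair was itself uneven (log2 −0.46 ± 0.06 SE, adjusted p = 2.12e-05). Msmo1 (NM_025436, chromosome 8, 2044 nt), the sterol C4-methyl oxidase, was at 136.92, 151.30 and 147.48 against 121.30 and 110.84 CPM (log2 −0.32 ± 0.06 SE, adjusted p = 0.000312). Mvd (NM_138656, chromosome 8, 1756 nt), mevalonate diphosphate decarboxylase, was at 47.56, 51.49 and 51.90 against 40.33 and 42.35 CPM (log2 −0.28 ± 0.07 SE, adjusted p = 0.00384). For both, each TR/TO-Klf9 library was below each parent library. The other lower genes were Idi1 at −0.44, Fasn at −0.33, Sqle at −0.24, Scap at −0.22, Stard4 at −0.21 and Cyp51 at −0.14. With the length trend removed, Fasn and Cyp51 did not pass and the 10 other genes did, beside 37.9% of all genes, 18.9% higher and 19.1% lower.

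**Figure D4:**
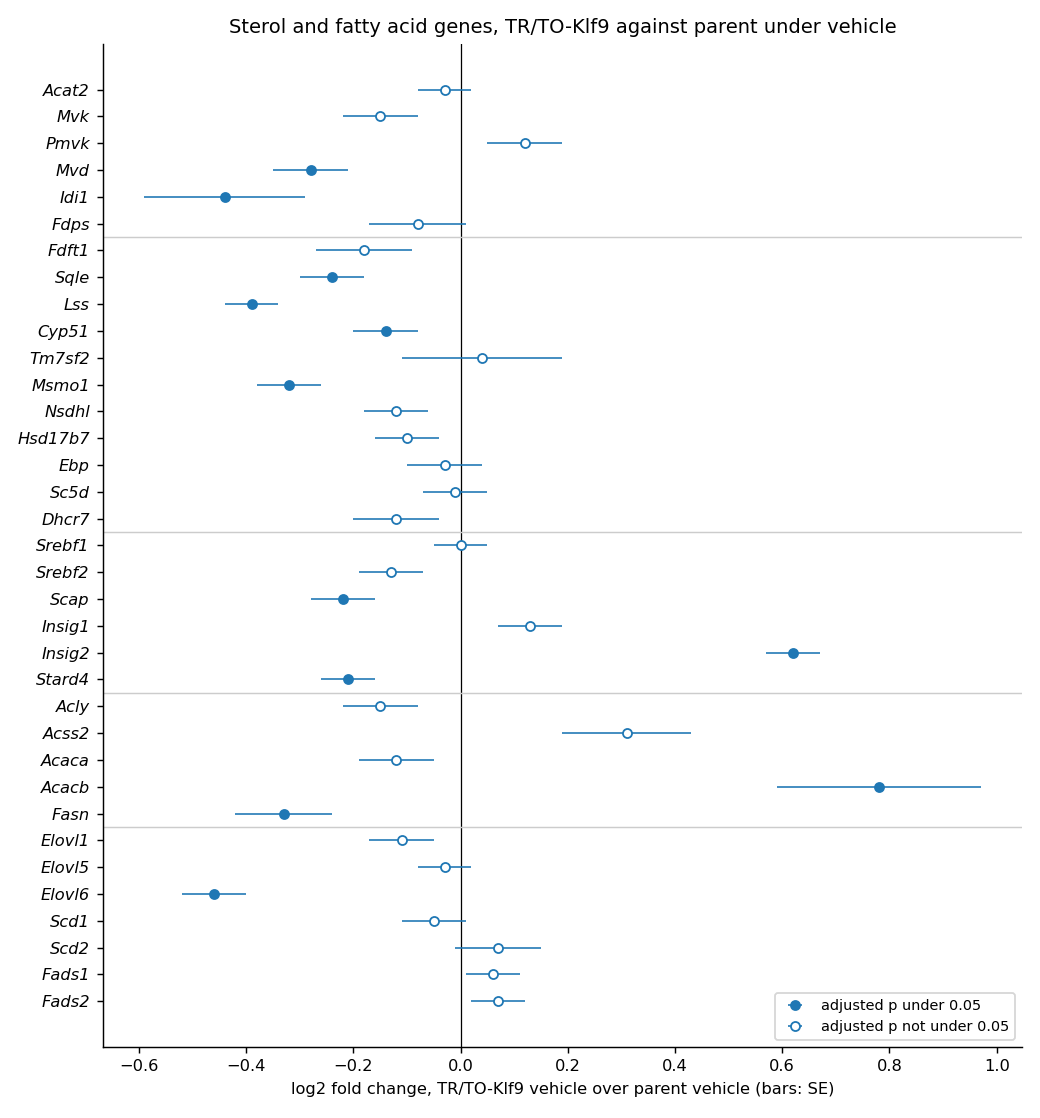
Log2 fold change of TR/TO-Klf9 vehicle over parent vehicle (x axis) with SE for each of the 35 genes tested, by role (grey lines separate roles), filled where the adjusted p was under 0.05. Insig2 at 0.62 and Acacb at 0.78 lie on the right, and the 10 filled genes on the left run from −0.46 for Elovl6 to −0.14 for Cyp51.

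Upstream sequences are shown for Insig1, Srebf2 and Cyp51, which fell in TR/TO-Klf9 cells, and Mvk, which rose, because they carry the box types named in SREBP promoters and the GC-rich boxes that KLF factors can bind. They are the 250 bases before each RefSeq start site on GRCm38.p6, in lower case with CCAAT and GGGCGG in capitals, on either strand (ATTGG and CCGCCC on the other).
Insig1, chr5:28071162-28071411, plus strand: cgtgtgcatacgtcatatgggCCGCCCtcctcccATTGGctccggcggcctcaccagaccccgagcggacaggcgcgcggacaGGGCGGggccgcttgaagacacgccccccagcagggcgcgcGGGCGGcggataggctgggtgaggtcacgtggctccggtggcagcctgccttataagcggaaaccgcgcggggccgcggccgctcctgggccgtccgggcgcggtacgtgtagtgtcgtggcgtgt
Srebf2, chr15:82147019-82147268, plus strand: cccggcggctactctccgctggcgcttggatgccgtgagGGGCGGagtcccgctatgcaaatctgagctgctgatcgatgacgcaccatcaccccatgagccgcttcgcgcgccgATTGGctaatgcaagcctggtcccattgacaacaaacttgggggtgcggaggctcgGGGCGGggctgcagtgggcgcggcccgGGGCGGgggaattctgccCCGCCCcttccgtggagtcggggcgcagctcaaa
Cyp51, chr5:4104698-4104947, minus strand: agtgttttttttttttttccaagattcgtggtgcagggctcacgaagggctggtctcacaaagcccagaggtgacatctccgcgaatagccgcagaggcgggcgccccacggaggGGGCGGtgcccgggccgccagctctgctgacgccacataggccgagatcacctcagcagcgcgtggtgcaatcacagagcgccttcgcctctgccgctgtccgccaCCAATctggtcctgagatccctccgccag
Mvk, chr5:114444019-114444268, plus strand: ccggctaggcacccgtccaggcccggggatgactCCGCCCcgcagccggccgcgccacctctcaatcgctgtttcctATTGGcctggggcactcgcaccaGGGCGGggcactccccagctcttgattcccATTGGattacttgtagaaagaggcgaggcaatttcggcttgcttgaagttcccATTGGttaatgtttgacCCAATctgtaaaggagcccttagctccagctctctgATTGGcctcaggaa
CCAAT is the box of NF-Y, a factor that acts with SREBP, and GGGCGG is the GC box of SP and KLF factors. Mvk held 5 CCAAT boxes in this stretch and Insig1, Srebf2 and Cyp51 held 1 each. GC boxes numbered 4 in Srebf2, 3 in Insig1, 2 in Mvk and 1 in Cyp51, and the GC content ran from 58.8% for Mvk to 72.8% for Insig1.

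Windows from 250 bases before to 50 after a start site were on hand for 29 of the 36 genes. CCAAT occurred in 24 of these 29 genes, beside 41.1% of all genes with a window. GGGCGG occurred in 23, beside 38.2% of all. CACCC, a box of KLF factors that can share bases with the other motifs where they adjoin, occurred in 19, beside 59.8%. TCACNCCAC, the core of the classical sterol regulatory element, occurred in 1 gene, Hmgcs1, beside 1.44%. Both genes that rose held CCAAT and GGGCGG and 1 held CACCC. Of the 7 that fell, 5 had a window, with CCAAT in 3, GGGCGG in 4 and CACCC in 3. Acaca was the one of these 5 whose window held none of the boxes, and whether that window is the promoter used in these cells was not tested. Among 22 uncalled genes with a window the counts were 19, 17 and 15. Both strands were searched, and matches describe letters in these windows only.

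Genes around the pathway gave a mixed picture in TR/TO-Klf9 cells after doxycycline. The counts below stand beside 17.8% of all genes called in this comparison, 6.44% higher and 11.4% lower. Of 14 other sterol synthesis genes, 1 rose and none fell, with a median of 0.10: the mitochondrial thiolase Acat1 went from 140.99 and 141.89 to 168.78 CPM (log2 0.25 ± 0.07 SE, adjusted p = 0.0182). Of 13 genes of SREBP processing, turnover and partners, 2 fell, the kinase gene Gsk3b at −0.31 and Erlin2, for an endoplasmic reticulum membrane protein, at −0.34, and neither passed with the length trend removed. Of 8 tested genes of LXR and sterol efflux, 2 fell, the nuclear receptor cofactors Ncor1 at −0.30 and Ncoa1 at −0.33, both near 0 with the trend removed.

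Sterol uptake, storage and transport held 5 falls and no rise among 14 genes, with a median of −0.17. That is 35.7% called, beside 17.8% of all genes. The lipoprotein receptor gene Lrp1 went from 867.59 and 970.30 CPM with vehicle to 564.11 with doxycycline (log2 −0.70 ± 0.12 SE, adjusted p = 0.00125), on a transcript of 14888 nt. Soat1, which esterifies cholesterol for storage, was at −0.30 and Npc1, the lysosomal cholesterol exporter, at −0.35. None of the 5 passed with the trend removed, and the median was then −0.05. Of 15 tested genes of other fatty acid synthesis and elongation, only Mcat, the mitochondrial malonyltransferase, passed, at 0.29 (adjusted p = 0.0409), and it did not pass with the trend removed (adjusted p = 0.0833).

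Among 15 tested genes of acyl-CoA and glycerolipid synthesis, 4 fell and none rose, which is 26.7% called, beside 17.8% of all genes. Gpam, the mitochondrial glycerol-3-phosphate acyltransferase, went from 54.24 and 63.29 to 43.06 CPM (log2 −0.45 ± 0.10 SE, adjusted p = 0.00479), and Dgat1, which closes triglyceride synthesis, from 65.49 and 59.13 to 48.73 CPM (log2 −0.35 ± 0.08 SE, adjusted p = 0.00784). Both were below every other library, and both passed with the length trend removed, at −0.38 and −0.36. Mlxip, a glucose-responsive transcription factor, was at −0.45 (adjusted p = 0.000314) and did not pass with the trend removed. Among 15 tested genes of AMPK and fatty acid oxidation, 1 rose, the AMPK subunit gene Prkag1 at 0.23 (adjusted p = 0.0246), which did not pass with the trend removed (adjusted p = 0.0653).

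Markers of cell types were examined as a check of the label. Of 11 neuron markers, 8 averaged under 1 CPM, among them Rbfox3, Snap25, Syt1 and Map2, and Gad1 was at 0; their sum ran from 33.2 to 39.3 CPM in the parent line, 18.6 to 22.7 in TR/TO-Klf9 vehicle and 14.3 in the doxycycline library, led by Tubb3. Fibroblast markers summed to 2840 to 3770 CPM, led by Col1a2. Astrocyte markers summed to 16.9 to 25.3 CPM with Aqp4 at 0, oligodendrocyte markers to 4.29 to 7.48, and endothelial markers to 6.38 to 8.2 in the parent line, 9.43 to 11.0 in TR/TO-Klf9 vehicle and 8.12 in the doxycycline library, with Cldn5 at 0. Microglia markers, chiefly Csf1r, summed to 1.58 to 2.65 CPM in the parent line and 12.6 to 14.5 in TR/TO-Klf9. Under vehicle the neuron sum was lower and the microglia and endothelial sums were higher in TR/TO-Klf9. By gene, 1 of 4 tested neuron markers rose and 1 fell between lines, and 2 of 2 microglia and 2 of 3 endothelial markers rose. Of 6 tested fibroblast markers 1 rose and 2 fell, and the 6 ranged from −7.43 to 0.51 in log2. Of 3 tested astrocyte markers 1 fell, and of 2 oligodendrocyte markers 1 rose and 1 fell. Over all genes 38.9% were called between lines. Of the 4 tested neuron markers, 3 had log2 estimates above 0 between lines and 1 below, from −1.19 to 3.81. The neuron sum was led by Tubb3, at a mean of 25.4 CPM, and its direction was not that of most tested markers. Elavl3, a neuronal RNA-binding protein gene, was at 1.77, 1.19 and 1.45 CPM in parent vehicle and 3.20 and 2.75 in TR/TO-Klf9 vehicle (log2 0.96 ± 0.25 SE, adjusted p = 0.00504). After doxycycline in TR/TO-Klf9, Elavl3 was at 1.07 CPM (log2 −1.46 ± 0.37 SE, adjusted p = 0.0135), and passed also with the length trend removed. Mbp, the myelin basic protein gene, was at 2.74 and 1.56 CPM with vehicle and 0.77 with doxycycline (log2 −1.47 ± 0.46 SE, adjusted p = 0.038), and did not pass with the trend removed. No other marker passed after doxycycline. The part of these markers in the line and doxycycline differences of the sterol genes was not tested.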

How the data were processed

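Counts were deposited by the authors as whole numbers per RefSeq transcript for 11 samples, with no normalization. The submitters' processing notes name DESeq, Bowtie, FastQC, CASAVA and the build mm8. Their versions, the annotation, the counting program and its strand setting are not given in the sources used. Per the labels' protocols, RNA was TRIzol-extracted and libraries were oligo-dT primed. The 36 genes, the lists and the tests were chosen with earlier results of these data known, so list counts are not independent evidence.

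Gene symbols came from a RefSeq table on GRCm38.p6, matching 32500 of 32923 distinct accessions. The row of highest mean was kept per gene. Genes were filtered (filterByExpr by group), scaled by TMM (CPM) and tested with edgeR 4.0.16 in R 4.3.3 (glmQLFit with robust estimation, glmQLFTest, 4 group means, 5 residual degrees of freedom). P-values were adjusted by Benjamini-Hochberg over 13536 genes and called under 0.05. The SE of a log2 fold change is its size divided by the square root of F, and the common dispersion of 0.00229 is a coefficient of variation of 4.78%. No source says that samples of a group came from separate cultures, so a p-value may reflect technical spread only. Intervals and the limit set by 3 counts at a count of 0 cover counting error only.

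The parent replicate numbers did not pair the libraries. Transcript lengths and 50-base overlaps were read from transcripts of GENCODE M21 through the RefSeq accession, with a length for 97.9% of genes tested; the loess trend of each library on log2 length (span 0.4) was removed through an offset. Promoters are RefSeq windows on GRCm38.p6. Full values were given for genes past the threshold after doxycycline in TR/TO-Klf9 and, between lines, for the 6 of smallest adjusted p; listed pathway genes were named by the smallest adjusted p among those past the threshold, up to 3 a list. The alternatives were limma-voom 3.58.1, DESeq2 1.42.0, scaling by RLE, a filter of 1 CPM in 5 libraries or none, a replicate block, only the groups compared, rows summed per gene, the length trend removed, the library with conflicting labels in either or both groups, and leaving out each library in turn. The test was tried on simulated counts. Python 3.11.15 with numpy 2.4.6, pandas 2.3.3 and matplotlib 3.10.9 did the remaining steps.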

Additional observations from a re-analysis of the deposited data

Results flagged for a closer look

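For 7 of the genes, the doxycycline effect in TR/TO-Klf9 cells differed from that in parent cells by a test of the difference itself, on the log2 scale and with edgeR's quasi-likelihood test. The differences, TR/TO-Klf9 minus parent, were −0.91 for Acaca, −0.54 for Fdps, −0.49 for Insig1, −0.38 for Srebf2, −0.38 for Stard4, −0.32 for Cyp51 and −0.28 for Fads2. By the same test 9.67% of all genes differed, 6.92% with the lower effect in TR/TO-Klf9. With the length trend removed, only Acaca, Fdps and Insig1 among the 35 genes kept the call. Each effect in the TR/TO-Klf9 line rests on 1 doxycycline library. With the library of conflicting labels counted as doxycycline too, edgeR called none of the 7 and 0 of all genes. Groups held at most 3 libraries, so single libraries were not screened for standing apart from their group.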

How the results depend on the processing

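Each sterol or fatty acid gene called in a comparison kept its direction there in all alternatives run. For doxycycline in TR/TO-Klf9 cells, 9 genes passed. DESeq2 called 5, the replicate block 5, the length trend removed 5 and only the groups compared 1. Of all genes these settings called 1319, 1381, 1376 and 127, against 2410 in the main fit. The library with conflicting labels kept as doxycycline or under both labels gave 0 (edgeR, with 7 and 4 genes at an unadjusted p under 0.05). Both of these fits also called 0 of all genes, with 2043 and 1479 at an unadjusted p under 0.05. Leaving out each library gave 7 to 14, with 14 without parent vehicle 1, beside 1890 to 3800 of all genes. Other settings were chosen after the data were seen. Only TR/TO-Klf9 libraries gave 2 with the conflicting library as vehicle and 0 with it as doxycycline (1 at an unadjusted p under 0.05). The length trend removed with only the groups compared gave 0 (5), and the trend removed with that library as vehicle 4. Over all genes these gave 379, 0, 99 and 1288. For the difference between lines, 7 passed. DESeq2, the replicate block and the length trend removed each gave 3, as did the trend removed with the library as vehicle. Over all genes these gave 716, 607, 430 and 396, against 1309 in the main fit. The library kept as doxycycline or under both labels gave 0 (3 and 2 at an unadjusted p under 0.05). Both also gave 0 over all genes, with 1073 and 655 at an unadjusted p under 0.05. Leaving out each library gave 2 to 10, beside 571 to 2910 of all genes. There were 3 without parent vehicle 3 or parent doxycycline 1, and 2 without parent doxycycline 2 or 3. The cause of these changes was not tested. The parent doxycycline comparison gave 0 throughout. The line comparison gave from 9, with the conflicting library as doxycycline, to 16, with it as vehicle. Over all genes these settings called 4373 and 5723, against 5264 in the main fit. The 6 genes named for the line comparison passed in all 22 alternatives.

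Of 24 alternatives for doxycycline in TR/TO-Klf9 cells, the call was kept in 20 for Acaca, 18 for Fdps and Insig1, 17 for Srebf2 and Stard4, 14 for Ebp, 13 for Mvk, and 10 for Cyp51 and Fads2; Acaca ranged from −1.03 to −0.43. Under the block Mvk was at 0.23 (adjusted p = 0.112) and Ebp at 0.25 (adjusted p = 0.13). Same-numbered parent libraries did not deviate together, with correlations of −0.000764 to 0.00789, and none correlated best with its own number; with 1 doxycycline library the TR/TO-Klf9 line allowed no such check. Leaving out TR/TO-Klf9 doxycycline 2 gave no value for its comparison or the difference, and only the groups compared gave none for the difference. The depth of the shallowest library limits low genes such as Acacb and Idi1, and with 1 doxycycline library no spread was measured in that group.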
